A study of Saccharomyces cerevisiae with 4 samples.

Results

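H2B is one of the core histones around which DNA is wrapped in the nucleosome. In budding yeast it is encoded by HTB1 (YDR224C) and HTB2 (YBL002W), and new histone is made mainly while DNA is replicated, so that the amount per cell rises through S phase. A part of H2B carries a single ubiquitin (H2Bub), which the ubiquitin-conjugating enzyme Rad6 (YGL058W) and the ligase Bre1 (YDL074C) attach and which is removed by the deubiquitinases Ubp8 and Ubp10. The H2B described here is the isoform without ubiquitin, taken from its own gel band.

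The count of H2B is 1 of the 2 readouts of the series, and it was taken for every cell barcode, 850 in the wild type plus 848 in the double knockout, or 1698 in all. Both strains are BY4741 (MATa his3 leu2 met15 ura3) grown in YPD to an OD600 of about 0.5. The genotype of the second strain is given as dub8/dub10 in the labels and as a deletion of UBP8 (YMR223W) and UBP10 (YNL186W) in the text of the study. In both strains H2B carried a spytag and a FLAG epitope at its C terminus, and only H2B with this tag can receive the oligo that is counted. Which of the H2B genes was tagged is not given in the sources used here. Each strain was 1 culture, with 1 library for the H2B band and 1 for the H2Bub band, so that strain, culture and library cannot be told apart and no test between strains is possible. The intervals below cover the counting error of UMIs or, for shares of barcodes, the drawing of barcodes. They do not cover differences between cultures. The deleted genes were not read by this assay. The nearest readout is the ratio of the summed H2Bub and H2B counts, which was 0.124 in the wild type, against 0.647 in the double knockout.

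In DUET (iDentification and qUantification sEparaTion), fixed cells pass through 2 rounds of 96 wells, and in each round a well-specific oligo is ligated to the tagged protein. The oligo of the first round also holds a random unique molecular identifier (UMI) of 12 nt, so that each different UMI under a cell barcode stands for 1 labelled protein molecule. Since 10% of the material was amplified, a count is a level in the library and not the number of H2B molecules in the cell. The oligos below show where a count comes from, with the 8 nt well barcode in capitals and the UMI as n. The well of the second round matters for the lowest counts described further on.
First round, well A1: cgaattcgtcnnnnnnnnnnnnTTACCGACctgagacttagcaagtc
Second round, well A1: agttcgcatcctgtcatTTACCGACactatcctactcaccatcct
Second round, well F11: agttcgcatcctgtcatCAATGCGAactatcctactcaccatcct

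The count of unmodified H2B per barcode was on average slightly higher in the double knockout, while its share of both isoforms was lower. The wild type had 4065 ± 1798 (SD, n = 850 barcodes) H2B UMIs per barcode, and the double knockout 4486 ± 2192 (SD, n = 848 barcodes), which is 1.10-fold the wild-type mean (1.10 to 1.11). The medians were 3478 and 3748.5 UMIs, a fold of 1.08, and the geometric means 3703 and 3945 UMIs, a fold of 1.07. The difference in the mean was 421 UMIs, far below the SD over cells in either strain, and the range of each strain covers most of that of the other. The wild-type barcodes ran from 1087 to 15925 UMIs and the double-knockout barcodes from 207 to 14070 UMIs. Over the same barcodes H2Bub was 5.77-fold higher in the double knockout (5.75 to 5.79), and the sum of both isoforms 1.62-fold (1.61 to 1.62). Unmodified H2B thus made up 89.0% of the summed UMIs in the wild type, against 60.7% in the double knockout. The bands were separate libraries and the counts were not normalized, so these shares are of library counts.

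On a log scale, H2B had 2 main peaks in both strains. In the wild type the kernel density peaked at 2895 and 5678 UMIs, with the lowest point between them at 4131 UMIs. The upper peak was 82.0% as high as the lower one, and the valley had 65.5% of the height of the upper peak, so that the peaks overlapped. In the double knockout the peaks stood at 2954 and 6543 UMIs and the valley at 4516 UMIs, where the density was 67.0% of the upper peak. The upper peak lay at 1.96 times the lower one in the wild type and at 2.22 times in the double knockout. Between strains, the lower peak differed by a fold of 1.02 (0.949 to 1.10 from the counting error of a single barcode at the peak), whereas the upper peak was 1.15-fold higher in the double knockout (1.10 to 1.21). The wider separation in the double knockout was seen for unmodified H2B only. For the sum of both isoforms, the upper peak over the lower one was 1.94 (wild type) and 1.95 (double knockout).

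**Figure D1:**
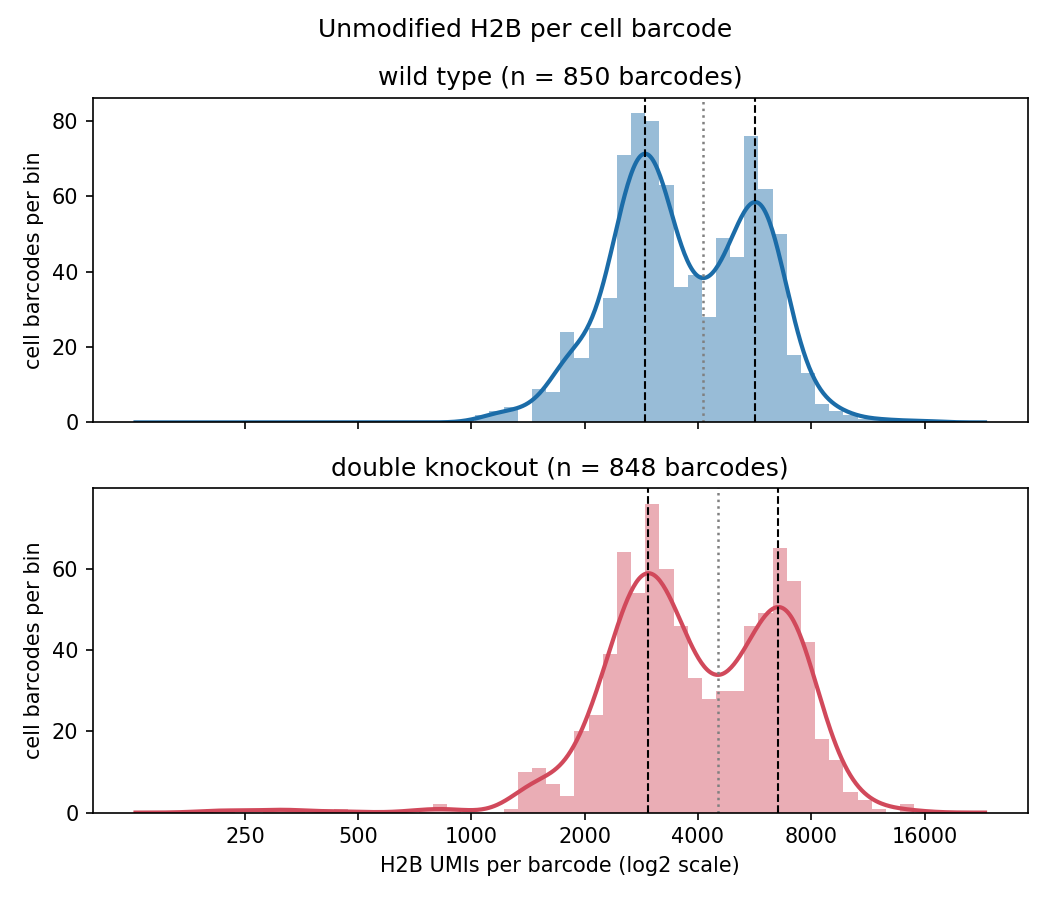
Number of cell barcodes (y axis) by H2B UMIs (x axis, log2 scale) in the wild type (n = 850) and the double knockout (n = 848), as a histogram with the kernel density drawn over it. Dashed lines mark the main peaks, at 2895 and 5678 UMIs for the wild type and at 2954 and 6543 UMIs for the double knockout, and dotted lines the valley between them. Barcodes below 1000 UMIs are seen in the double knockout only. Of these 10, 6 came from second-round well F11, from which the wild type has no barcode.

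The shares of barcodes by fixed count ranges showed where the strains parted. From 2000 to 4000 UMIs lay 420 wild-type barcodes, or 49.4% (46.0 to 52.8%, Clopper-Pearson), and 397 double-knockout barcodes, or 46.8% (43.4 to 50.2%). From 4000 to 8000 UMIs the shares were nearly equal, 40.9% (37.6 to 44.3%) and 40.6% (37.2 to 44.0%). At 8000 UMIs or more lay 17 wild-type barcodes, or 2% (1.17 to 3.18%), against 50 double-knockout barcodes, or 5.90% (4.41 to 7.70%). From 1000 to 2000 UMIs lay 65 barcodes (7.65%, 5.95 to 9.64%) and 47 barcodes (5.54%, 4.10 to 7.30%). Below 1000 UMIs were none of the wild-type barcodes, which allows a share of up to 0.433%, and 10 of the double-knockout barcodes (1.18%, 0.567 to 2.16%). Among these barcodes, the upper end and the extreme lower end were thus fuller in the double knockout. At the lower end the strains were not compared over like wells. Of the 10 barcodes below 1000 UMIs, 6 came from second-round well F11, from which the wild type has no barcode. The cutoff in reads by which barcodes were taken as cells also bears on how low a count can be. The intervals treat barcodes as independent draws, although each strain was 1 culture.

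The sides of the log-scale distribution differed between strains in the same way. The wild type was close to symmetric on the log2 scale, with a skewness of -0.01 and an excess kurtosis of -0.52. On this scale, 91.5% of wild-type barcodes lay within 1 log2 unit of the median, against 84.9% of double-knockout barcodes. The double knockout had a skewness of -0.83 and an excess kurtosis of 2.77, that is, a long lower tail. Without its 10 barcodes below 1000 UMIs, skewness and excess kurtosis were -0.01 and -0.90, so that the lower tail rested on these barcodes.

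A Gaussian mixture on log2 H2B gave a similar picture of the double knockout once the lowest barcodes were left out. With 2 components, the wild-type centres were 2751 and 5637 UMIs, with 58.6% of the weight in the lower one. For the 838 double-knockout barcodes of at least 1000 UMIs the centres were 2870 and 6527 UMIs, with 58.1% in the lower one. The lower centre was therefore 1.04-fold (0.969 to 1.12) and the upper centre 1.16-fold (1.10 to 1.22) that of the wild type, at nearly the same weights. These bounds come from the counting error of a single barcode at the centre. With all 848 barcodes the fit of 2 components placed 75.3% of the weight in a broad lower component with an SD of 0.71 log2 units. By the Bayesian information criterion (BIC, lower is better), 3 components were preferred in the wild type (BIC 1555 against 1579 for 2). In the double knockout from 1000 UMIs, 2 components were preferred (1655 against 1660 for 3). With all 848 double-knockout barcodes, 3 were preferred to 2 (1803 against 1911). That fit had centres at 2914 and 6497 UMIs beside a broad component with 5.53% of the weight. The preferred number thus depended on the lowest barcodes. The third wild-type component split the lower component, with centres at 2157 UMIs (18.1% of the weight) and 2959 UMIs (37.3%).

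The fold between strains depended on the position in the distribution. At the 5th and the 10th percentile the counts were alike, with 1845 and 2192 UMIs in the wild type against 1853 and 2198 UMIs in the double knockout. The folds there were 1.005 (0.917 to 1.10) and 1.003 (0.922 to 1.09). The bounds come from the Poisson error of a single barcode with the count at the percentile. They are not the error of a percentile over all barcodes. At the 25th percentile the counts were 2698 and 2770 UMIs, a fold of 1.03 (0.952 to 1.11). At the median the fold was 1.08 (1.01 to 1.15). At the 75th percentile the counts were 5433 and 6235 UMIs, a fold of 1.15 (1.09 to 1.21). At the 90th percentile they were 6408 and 7482 UMIs, a fold of 1.17 (1.11 to 1.22), and at the 95th 6964 and 8141 UMIs, with the same fold of 1.17 (1.12 to 1.22). The rise with the percentile did not go on to the end, since at the 99th percentile the counts were 9074 and 9843 UMIs, a fold of 1.08 (1.04 to 1.13). At the 1st percentile the order was turned, with 1386 UMIs in the wild type, against 861 UMIs in the double knockout, a fold of 0.622 (0.551 to 0.701). The latter count falls among the 10 double-knockout barcodes under 1000 UMIs.

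Sums over deciles of the barcodes, each ordered by its own count, gave the same course. The bounds here come from the counting error of the summed UMIs. The lowest decile had a mean of 1795 UMIs in the wild type, against 1669 UMIs in the double knockout, a fold of 0.930 (0.920 to 0.939). Decile 2 had a fold of 1.01 (0.997 to 1.01), decile 4 of 1.03 (1.03 to 1.04), decile 6 of 1.10 (1.10 to 1.11) and decile 8 of 1.15 (1.14 to 1.16). Decile 9 had the highest fold, 1.17 (1.16 to 1.17), with 6057 and 7074 UMIs, and in the top decile the means of 7489 and 8629 UMIs gave 1.15 (1.15 to 1.16). Of the difference in the mean between the strains, deciles 7 to 10 held 82.9% and deciles 1 to 4 held 1.82%. Upper deciles have larger counts, so that even the same fold everywhere would put more of the difference there. The top decile held 25.2% for H2B, against 18.1% of the difference for H2Bub, whose fold did not rise along its deciles. The share of deciles 1 to 4 includes -2.90% from the lowest decile. The lowest decile turned with its lowest barcodes: without those under 1000 UMIs its fold was 1.04 (1.03 to 1.05), without the 6 barcodes of second-round well F11, described further on, it was 0.997 (0.987 to 1.01), and the top decile had 1.15 (1.15 to 1.16) in either case.

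The fold of H2Bub did not rise along its deciles, and that of the sum of both isoforms rose less than that of H2B. The H2Bub fold was 5.94 (5.84 to 6.05) in decile 2 and 5.71 (5.65 to 5.77) in the top decile, with values from 5.72 to 5.94 in between. For the sum of both isoforms it was 1.57 (1.56 to 1.58) in decile 2, 1.62 (1.61 to 1.63) in decile 5 and 1.64 (1.64 to 1.65) in the top decile. From decile 2 to the top decile the H2B fold thus moved from 1.01 to 1.15, and the fold of the sum from 1.57 to 1.64. The lowest decile was lower than the others for all 3 counts, with 5.33 for H2Bub and 1.44 for the sum.

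**Figure D2:**
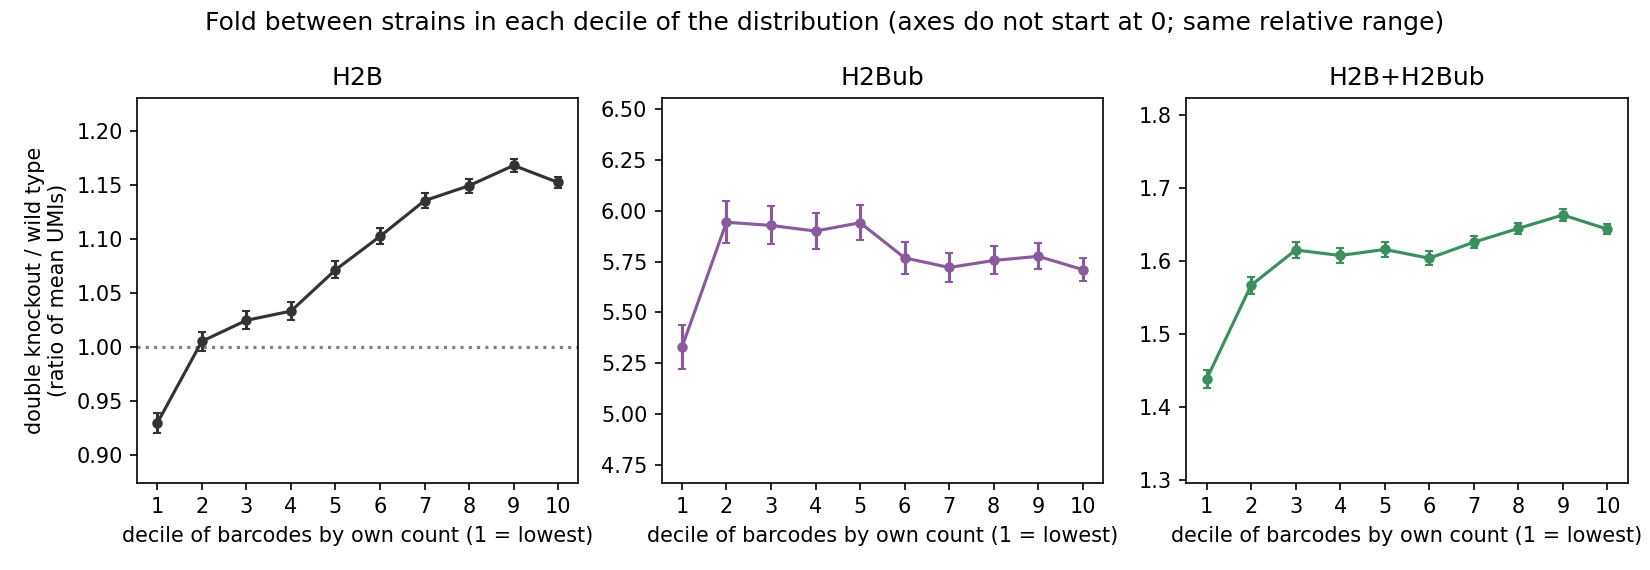
Ratio of mean UMIs, double knockout over wild type (y axis), in each decile of the barcodes ordered by the count plotted (x axis), for H2B, H2Bub and their sum; error bars are counting error from exact Poisson intervals. For H2B the fold runs from 0.930 in the lowest decile to 1.17 in decile 9; the y axes do not start at 0 and span the same relative range.

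Barcodes were also ordered by H2Bub, a count from a different band of the same cells. Across barcodes it followed H2B closely, with Pearson's r of log2 counts of 0.959 in the wild type and 0.946 in the double knockout. This order is therefore close to the order by H2B and gives no independent check. The H2B fold was highest in deciles 7 to 10. In the deciles of barcodes by H2Bub, decile 2 had 2507 ± 361 (SD) H2B UMIs in the wild type, against 2534 ± 379 in the double knockout, a fold of 1.01 (1.002 to 1.02). In decile 8 the means were 5478 ± 497 and 6414 ± 785 UMIs, a fold of 1.17 (1.16 to 1.18). The course was not smooth. Decile 1 had a fold of 0.929 (0.920 to 0.938), decile 3 of 1.09 (1.08 to 1.10) and decile 4 of 1.10 (1.09 to 1.11). Decile 5 had 1.07 (1.06 to 1.07), decile 6 had 1.03 (1.02 to 1.04) and the top decile 1.12 (1.12 to 1.13). The SD of H2B among barcodes of like H2Bub was larger in the double knockout in deciles 1 to 9. In the top decile it was not, with 1645 UMIs in the wild type, against 1607 UMIs in the double knockout.

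**Figure D3:**
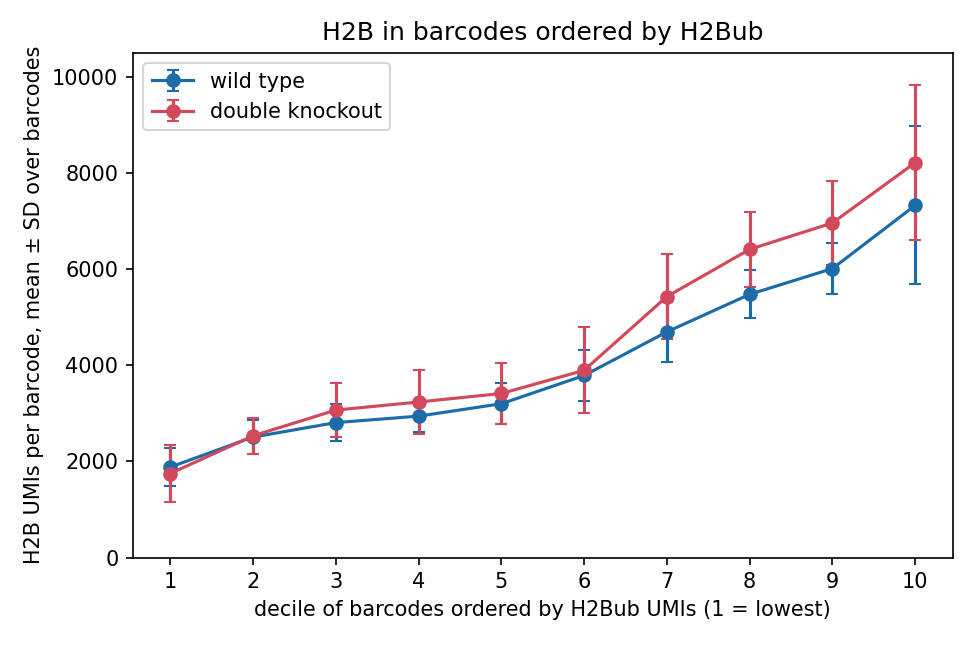
H2B UMIs per barcode (y axis) in deciles of barcodes ordered by their H2Bub UMIs (x axis), as mean ± SD over the 84 or 85 barcodes of a decile, for the wild type and the double knockout. The curves meet in decile 2 and lie furthest apart in deciles 7 to 10, where the fold is at least 1.121.

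Counting error was a very small part of the spread of H2B between cells. A Poisson count has a variance equal to its mean, that is, a Fano factor (variance over mean) of 1. The Fano factor of H2B was 795 in the wild type, against 1071 in the double knockout. The coefficient of variation (CV) was 44.2% and 48.9%, while Poisson counting at the mean gives 1.57% and 1.49%. With the Poisson part taken off, the CV was 44.2% in the wild type, against 48.8% in the double knockout, 28.2 and 32.7 times the Poisson value. Poisson counting made up 0.126% and 0.0934% of the variance of the counts.

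The wider spread of unmodified H2B in the double knockout did not rest on its extreme barcodes alone. Without barcodes under 1000 UMIs its CV beyond Poisson was 47.6%, and with barcodes from 1000 to 9000 UMIs only it was 44.6%, against 41.1% in the wild type. The middle of the distribution was wider too. The 75th percentile was 2.01 times the 25th in the wild type, against 2.25 times in the double knockout, and the 90th was 2.92 and 3.40 times the 10th. Within the upper part, from the 75th to the 95th percentile, the ratios were 1.28 and 1.31. Within the lower part, from the 10th to the 40th percentile, they were 1.41 and 1.48. The sum of both isoforms differed less, with a CV beyond Poisson of 43.8% and 45.3% over all barcodes. Over barcodes from 1000 to 9000 H2B UMIs it was nearly equal, 40.7% in the wild type and 40.9% in the double knockout.

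Spread beyond counting was also present around each peak. The mixture components had SDs of 0.39 and 0.32 log2 units in the wild type, which is 14.2 and 16.6 times the SD that counting gives at their centres. The component SDs of the double knockout from 1000 UMIs were 0.41 and 0.31 log2 units, 15.1 and 17.4 times counting. These components were fitted to the same counts and describe their shape only.

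By the CV beyond Poisson, H2B varied more than H2Bub in the double knockout, and by a similar amount in the wild type. By the CV from the interquartile range, H2B varied more in both strains. That CV was 58.3% for H2B and 47.6% for H2Bub in the wild type, against 68.5% and 45.5% in the double knockout. The CV beyond Poisson was 44.2% for H2B and 42.3% for H2Bub in the wild type. In the double knockout it was 48.8% for H2B and 41.4% for H2Bub, or 47.6% and 40.1% without barcodes under 1000 H2B UMIs. Across barcodes, which share the library depth of a cell and are not independent replicates, Pearson's r between log2 H2B and log2 H2Bub was 0.959 in the wild type (n = 849, leaving out the barcode without H2Bub) and 0.946 in the double knockout (n = 848). The SD of log2 H2B was 1.05 times that of log2 H2Bub in the wild type, against 1.15 times in the double knockout, or 1.21 times from 1000 UMIs upward. Around a line fitted to log2 H2Bub, log2 H2B kept a residual SD of 0.18 in the wild type, against 0.25 in the double knockout. Counting error of both isoforms gives 0.07 and 0.04, so that the part of H2B not shared with H2Bub was larger in the double knockout although its H2Bub counts were deeper.

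The lowest double-knockout barcodes came largely from a single well of the second round of ligation. Of the 10 barcodes under 1000 H2B UMIs, 6 carried the second-round barcode of well F11, whose oligo is shown above, and these were all the barcodes that F11 held. Their H2B counts were 284, 321, 338, 451, 829 and 898 UMIs, and their H2Bub counts 211, 190, 204, 338, 541 and 416 UMIs. Both isoforms were thus low together, and the ratio of their summed counts was 0.609, against 0.647 in the strain. The geometric mean of well F11 was 467 UMIs, 8.45-fold below that of the strain, and the next lowest well, F5, had 2324 UMIs. The double-knockout wells beside it on the plate did not share this level, with geometric means of 3597 UMIs in E11, 3809 UMIs in F10, 4446 UMIs in F12 and 3918 UMIs in G11. In the wild type, F10 and E11 had geometric means of 1995 and 2080 UMIs over 3 barcodes each, among the lowest wells of that strain. The first-round wells of the 6 barcodes were all different. The wild-type table has no barcode from F11. Of the other 4 low barcodes, 2 came from wells A11 and B11, so that 8 of the 10 lay in column 11 of the second-round plate. The remaining barcodes of A11 and B11 were not low as a group, with well medians of 3507 and 4275.5 UMIs. The column held 79 barcodes with a median of 3199 UMIs, or 3364 UMIs without F11. Whether these barcodes were cells with little histone or cells labelled less was not tested.

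The cell barcodes at the ends of each distribution are given with the first-round part in lower case and the second-round part in capitals, since a shared run of capitals shows a shared second-round well. In the double knockout CAATGCGA, the barcode of F11, recurs among the lowest.
Double knockout, 207 UMIs: gccttaacGTACACCT
Double knockout, 231 UMIs: gccttaacCCAAGGTT
Double knockout, 284 UMIs: ccttccatCAATGCGA
Double knockout, 321 UMIs: gacgtcatCAATGCGA
Double knockout, 338 UMIs: gtccttgaCAATGCGA
Double knockout, 451 UMIs: tcatctccCAATGCGA
Double knockout, 726 UMIs: ggaagagaTCTAGGAG
Double knockout, 825 UMIs: caactccaGACGAACT
Double knockout, 829 UMIs: aggatagcCAATGCGA
Double knockout, 898 UMIs: gtaccacaCAATGCGA
Double knockout, 11760 UMIs: tacctgcaCGAGAGAA
Double knockout, 14051 UMIs: gcgttagaCCACAACA
Double knockout, 14070 UMIs: aaccagagCTTACAGC
Wild type, 1087 UMIs: ccagtatcGGAAGAGA
Wild type, 1110 UMIs: agaccttgGACGAACT
Wild type, 1192 UMIs: agctaagcGTCCTAAG
Wild type, 11954 UMIs: cttcactgCACAGACT
Wild type, 13106 UMIs: aaccagagCTTGCTAG
Wild type, 15925 UMIs: cacgcaatTGGTGAAG
The lowest pair of the double knockout shared the first-round well G7, whose other 9 barcodes reached up to 7979 UMIs. After the 10 barcodes under 1000 UMIs the next lowest had 1316 UMIs. The highest barcodes of the strains came from different second-round wells. By random dealing to 9216 barcodes, 40.4 wild-type and 40.2 double-knockout barcodes are expected to hold more than 1 cell, and such barcodes were not removed. Above 9000 UMIs lay 9 wild-type and 22 double-knockout barcodes.

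Wells H2 and F5 of the second round were low in both strains. In H2 the 7 wild-type barcodes ran from 1087 to 3216 UMIs with a median of 1962 UMIs, all under the median of the strain. The 8 double-knockout barcodes of H2 ran from 1316 to 5091 UMIs with a median of 2536 UMIs, 6 of them under the median of the strain. In F5 the medians were 3021 UMIs (7 barcodes, 6 under the median of the strain) and 2412 UMIs (7 barcodes, 5 under it). In both wells the barcodes overlapped those of other wells. H2Bub moved with H2B there, with medians of 227 UMIs in H2 and 372 UMIs in F5 in the wild type, against 440.5 over all barcodes. Among wells with at least 5 barcodes, the highest were B9 and B3 in the wild type, with geometric means of 5653 and 5277 UMIs, and B2 and E2 in the double knockout, with 5569 and 5374 UMIs.

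**Figure D4:**
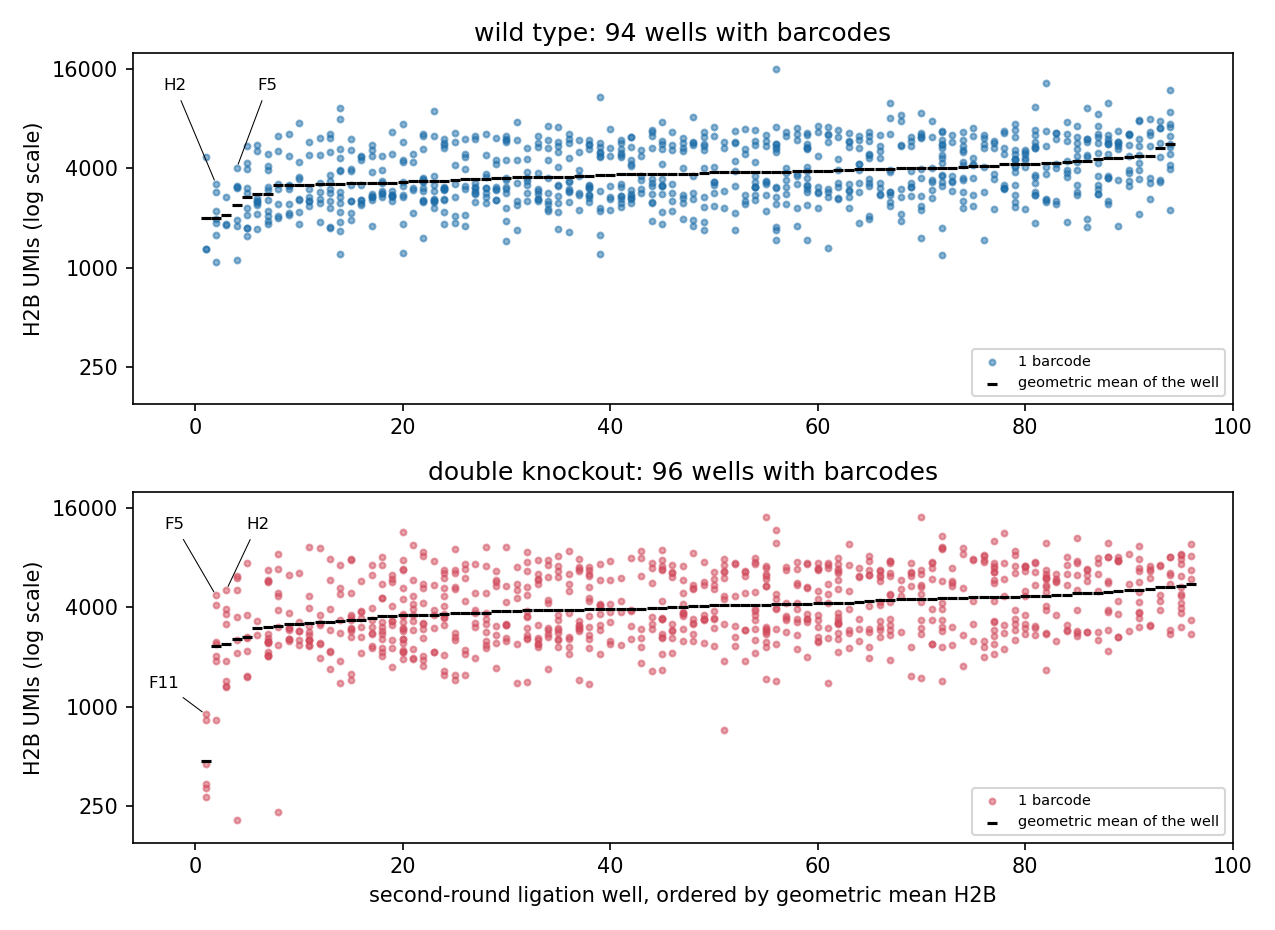
H2B UMIs of each barcode (y axis, log scale) by second-round ligation well, with wells ordered along the x axis by their geometric mean (black dashes), in the wild type and the double knockout. All 6 double-knockout barcodes of well F11 lie between 284 and 898 UMIs, F11 has the lowest geometric mean of the wells, and F5 and H2 lie at the low end in both strains.

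Beside these wells, little of the spread of H2B went with the wells. In the wild type, 14.8% of the variance of log2 H2B lay between first-round wells and 12.8% between second-round wells, where dealing at random gives 11.1% and 10.95% on average. In the double knockout the shares were 11.6% and 20.3%, against 11.2% for either round. The second-round share of the double knockout was 10.2% without well F11. Among wells with at least 5 barcodes, the highest first-round geometric mean was 2.24 times the lowest in the wild type (E3 with 2350 UMIs to B3 with 5267 UMIs) and 2.54 times in the double knockout (G7 with 2273 UMIs to C3 with 5776 UMIs). All 9 wild-type barcodes of E3 were under the median of the strain, as were 9 of the 12 barcodes of A3, which had a geometric mean of 2555 UMIs. First-round well F10 was among the highest in both strains, with 5112 UMIs over 5 wild-type barcodes and 5690 UMIs over 12 double-knockout barcodes, and B7 was next to lowest in the double knockout with 2655 UMIs over 6 barcodes, 1 of which also came from F11.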

How the data were processed

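Unmodified H2B was measured in 2 of the 4 libraries of the series, one of the wild type and one of the double knockout, by DUET, with H2Bub from the other 2. The deposited values are counts. The authors had removed reads with over 1 mismatch in the fixed stretch of the oligo, read the cell barcode as the pair of well barcodes (9216 pairs are possible), taken barcodes with enough reads as cells, and counted distinct UMIs. No tool for this, and no correction of UMI errors, is given in the sources used here. Reads carried over from another band, or errors in a UMI, would add to a count.

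All 850 wild-type and 848 double-knockout barcodes were used, without normalization, and no doublet caller was run on a single feature. H2B sums to 3455421 and 3803975 UMIs. Each strain is 1 culture and 1 library, so no test, p-value or standard error over cells is reported. Exact 95% intervals for sums are Poisson and cover counting error only. Those for shares are Clopper-Pearson and treat barcodes as independent draws. Folds carry the widest bounds that both intervals allow. At a percentile, a peak or a mixture centre, the bounds are those of a single barcode with that count. At the mean depth a single barcode has a Poisson error of 1.57% or 1.49%. Quantiles were interpolated linearly. Densities were Gaussian kernels on log2 counts with Scott's bandwidth, and mixtures had 1 to 4 components. Wells were read from the barcode through the sheets of ligation oligos, and between-well shares were set beside the share that random dealing gives on average. Barcodes were named at the ends of each distribution and below 1000 UMIs, and wells at the ends among those with at least 5 barcodes. Some further wells, barcodes and features were named after their values were seen. The members, limits and alternatives were chosen with earlier results of these data known. The functions were tested on simulated counts. Mixtures were fitted with scikit-learn 1.9.0, densities with SciPy 1.17.1 and figures with Matplotlib 3.10.9, under Python 3.11.15 with pandas 2.3.3 and NumPy 2.4.6.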

Additional observations from a re-analysis of the deposited data

How the results depend on the processing

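Of 136 alternative values, 76 lay within the bounds of the reported one, some because the setting could not move them. Bounds were wide for percentile folds and peak separations, from a single barcode, and narrow for means, from summed UMIs. The count thus depends on the kind of bounds and does not measure how stable the results are. The mean fold and the folds at the 50th, 75th, 90th and 95th percentile stayed above 1, and those in between and the 1st and 99th were not recomputed. The folds at the 5th, 10th and 25th percentile lay on both sides of 1, down to 0.923, 0.979 and 0.994 with the deviation of the first-round (5th, 10th) or second-round wells taken off. With H2Bub added, the peak separation was nearly equal in the strains (1.94 and 1.95), whereas otherwise it was wider in the double knockout. The cause of the other moves was not tested. Without barcodes over 9000 UMIs the means were 3990 (wild type) and 4331 (double knockout), the fold 1.09 and the CV beyond Poisson 41.1% and 45.9%. Without those under 1000 UMIs the double knockout had a mean of 4533, a CV of 47.6% and well shares of 13.3% and 9.95% (rounds 1 and 2), and the fold was 1.115. With H2Bub added, the means were 4568 and 7390, the mean fold 1.62, the folds at the 10th, 50th and 90th percentile 1.54, 1.59 and 1.68, the CVs 43.8% and 45.3%, and the well shares 15.1% (wild type, round 1), 12.1% and 22.7% (double knockout). Geometric means were 3703 and 3945, a fold of 1.07. With 25 UMIs taken off, the means were 4040 and 4461. The fold of geometric means was 1.05 within first-round and 1.09 within second-round wells, to be set beside 1.07 over all barcodes.

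Taking the deviation of first-round wells off gave peak separations of 1.81 and 1.97 and CVs of 41.7% and 47.0%, and of second-round wells, chosen after seeing the data, 1.81 and 1.99, and 41.6% and 46.8%; this removes spread by construction. The CV from the interquartile range was 58.3% and 68.5%. Also chosen after seeing the data, leaving out well F11 gave 4514, a fold of 1.11, a CV of 48.1% and shares of 13.4% and 10.2% in the double knockout. Leaving out second-round wells F11, F10, H2, F5 and E11 gave means of 4107 and 4556, a fold of 1.11, CVs of 43.6% and 47.7%, and shares of 15.6% and 9.44% (wild type) and 15.1% and 8.63% (double knockout). With wells of at least 5 barcodes the shares were 14.4% and 11.7% in the wild type and 11.1% in round 1 of the double knockout. The second-round excess of the double knockout over random dealing thus depends on F11. No paired analysis was possible because each strain has 1 library per band and the labels give no replicate numbers.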

Other observations

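The strains shared 72 of the 9216 possible cell barcodes, where 78.2 are expected by independent dealing. Over these 72 pairs of cells, which share only their wells, Pearson's r of log2 H2B was 0.03 and Spearman's rho 0.03. Over the 87 second-round wells with at least 5 barcodes in both strains, the mean log2 H2B of a well had Pearson's r of 0.32 and Spearman's rho of 0.12 between strains, and over 82 first-round wells 0.12 and 0.14. First-round well H5 held both the highest double-knockout barcode (14070 UMIs) and the next to highest wild-type barcode (13106 UMIs), while the medians of this well were 5491 and 3581 UMIs over 13 and 10 barcodes.

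By row of the second-round plate, the median H2B of the wild type ran from 3112 UMIs in row H to 3865 UMIs in row B, with 1.56% of the variance of log2 H2B between rows, against 0.824% by random dealing. In the double knockout it ran from 3347 UMIs in row G to 4187 UMIs in row E, with 1.49% between rows, against 0.826% by random dealing. Between second-round columns lay 4.07% in the double knockout, against 1.30% by random dealing, with the lowest median in column 11 (3199 UMIs), which holds F11, and the highest in column 12 (4515 UMIs). In the wild type it was 1.004%, against 1.30%. UMIs that meet by chance would have removed 7.56 UMIs from the highest wild-type barcode.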
